A study of Homo sapiens with 4 samples.

Results

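U1 small nuclear RNA (snRNA) was represented in the count tables by 127 annotated features, of which 50 had 10 or more counts summed over the 4 small RNA libraries and are described here. They were found by symbol, as features whose GENCODE symbol starts with RNU1- or RNVU1, among 7062 features listed. By symbol, 4 of the 50 were functional loci (RNU1-1, RNU1-2, RNU1-3 and RNU1-4, the only functional loci listed), 10 of 12 listed were variants (RNVU1) and 36 of 111 listed were pseudogenes (RNU1 with a final P). Of the other U1 features, 40 had 0 counts and 37 had between 1 and 9. The members were chosen by their summed counts, so their totals are a description: RNU1-132P and RNU1-32P entered with 11 counts each, whereas RNU1-20P and RNU1-63P stayed out with 9 each. The libraries came from the human embryonic kidney line HEK293T (entered as HEK293 in the cell line label), transiently transfected with 1.5 μg of plasmid per well. The plasmid carried an RNA polymerase II C-terminal domain (CTD) of 52 repeats, either with threonine 4 of the repeat replaced by alanine (52X T4A, n = 2) or wild type (52X WT, n = 2). Both groups were selected with 2.5 μg/ml α-amanitin for 72 h, by which time untransfected cells had been eliminated according to the labels, so no untransfected or untreated library stands beside them.

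U1 snRNA is transcribed by RNA polymerase II from snRNA-type promoters and is exported, assembled with a ring of Sm proteins and returned to the nucleus as the U1 small nuclear ribonucleoprotein (snRNP). The 5′ end of the RNA pairs with the 5′ splice site of pre-mRNA, and the first stem loops bind the proteins U1-70K and U1A. The human genome carries several true genes with the same RNA sequence, a set of variant genes, and many pseudogenes.

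The sequences below are shown because shared sequence bears on every count. They are GENCODE v44lift37 transcripts, matched by gene identifier for 127 of 127 U1 features. The length was the same as in the tables for 126 of them, and RNU1-122P had 151 nt in GENCODE and 156 nt in the tables. In RNU1-1, capitals mark 4 elements in order from the 5′ end: the stretch that pairs with the 5′ splice site (positions 3 to 11), the loop bound by U1-70K (28 to 37), the loop bound by U1A (65 to 74) and the Sm site (125 to 133). In the other 6, capitals mark the bases that differ from RNU1-1; T stands for U. RNVU1-9, RNU1-11P and RNVU1-10 were the members with the most counts after the identical copies, RNVU1-17 came next, and RNU1-67P and RNU1-89P show a high identity with far lower counts.
RNU1-1: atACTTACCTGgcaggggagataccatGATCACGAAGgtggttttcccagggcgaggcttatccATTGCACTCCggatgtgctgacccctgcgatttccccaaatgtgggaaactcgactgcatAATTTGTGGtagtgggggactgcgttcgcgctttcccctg
RNVU1-9: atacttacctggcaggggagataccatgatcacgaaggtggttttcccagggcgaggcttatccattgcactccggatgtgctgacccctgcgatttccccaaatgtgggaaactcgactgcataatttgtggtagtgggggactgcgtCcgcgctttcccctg
RNU1-11P: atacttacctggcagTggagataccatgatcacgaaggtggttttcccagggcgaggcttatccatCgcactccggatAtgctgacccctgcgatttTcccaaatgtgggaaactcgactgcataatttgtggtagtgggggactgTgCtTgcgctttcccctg
RNVU1-10: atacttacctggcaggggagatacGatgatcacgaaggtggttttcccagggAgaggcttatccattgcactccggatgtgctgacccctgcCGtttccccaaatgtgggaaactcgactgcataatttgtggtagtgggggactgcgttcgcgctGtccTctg
RNVU1-17: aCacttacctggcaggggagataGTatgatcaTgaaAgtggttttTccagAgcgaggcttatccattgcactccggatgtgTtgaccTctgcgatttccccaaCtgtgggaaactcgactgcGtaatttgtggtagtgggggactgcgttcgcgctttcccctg
RNU1-67P: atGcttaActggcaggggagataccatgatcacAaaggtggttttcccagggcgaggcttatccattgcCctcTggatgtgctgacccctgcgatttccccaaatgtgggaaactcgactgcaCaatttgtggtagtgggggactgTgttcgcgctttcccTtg
RNU1-89P: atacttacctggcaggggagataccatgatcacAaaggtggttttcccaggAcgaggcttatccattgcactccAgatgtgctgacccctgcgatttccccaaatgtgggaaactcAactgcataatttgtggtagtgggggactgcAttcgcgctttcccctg

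The files give the position of RNU1-1 as chr1:16514122-16514285 (hg38, minus strand), and GENCODE places it between genes. RNU1-3 lies nearby at chr1:16666785-16666948 on the minus strand, across an exon of a long non-coding RNA on the other strand. RNU1-4 (chr1:16740516-16740679) and RNU1-2 (chr1:16895980-16896143), both on the plus strand, lie in introns of CROCC, on its strand, and RNU1-4 also lies across an exon of a long non-coding RNA on the other strand. The variants RNVU1-17 (chr1:143699456-143699619), RNVU1-9 (chr1:148038753-148038916) and RNVU1-10 (chr1:148362370-148362533) are all on the minus strand of chromosome 1 and outside genes. RNU1-11P (chr6:13214056-13214219, plus strand) lies in an intron of PHACTR1, RNU1-67P (chrX:119423742-119423905, plus strand) in an intron of SLC25A43, and RNU1-89P (chr4:135995929-135996092, minus strand) between genes. No member overlaps another feature of the count tables.

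Library totals ranged from 16180790 to 27370127 counts, and the 50 members took little of them. They had 4617 and 7679 counts in 52X T4A and 4715 and 4398 in 52X WT. These were 0.0281 to 0.0285% and 0.0230 to 0.0291% of all counts. U1 counts and their shares, here and below, are those of the 50 members. They leave out U1 genes named by RefSeq position alone, such as RNVU1-28 with a total of 2005. The reads were sequenced at 50 bp and the U1 RNA has 164 nt, so a count is a read from some part of the RNA. How long the reads were after trimming is not known from the counts. The tables do not record which part, nor whether the RNA was whole. No small RNA defines HEK293T cells. Of the miRNA lists for other cells, liver, red cell and leukocyte miRNAs summed to 0.185 to 0.989 CPM (counts per 1e+06 counts of the library) in every library and neuronal miR-124 loci to 4.26 to 10.9. The 4 muscle loci (miR-1 and miR-133a) summed to 92.6 and 93.9 in 52X T4A against 27.4 and 32.5 in 52X WT, and the 3 kidney epithelial loci to 1386 and 1631 against 899 and 1022. The part of these differences in the U1 values was not tested. In bulk RNA, fewer cells of a kind and less RNA per cell cannot be told apart.

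Most U1 counts lay on copies that cannot be told apart. Of the 50 members, 7 had the same 164-nt sequence: the 4 functional loci, the variant RNVU1-18 and the pseudogenes RNU1-27P and RNU1-28P, which lie on chromosome 14. Their totals ran from 1976 for RNU1-1 to 2085 for RNU1-4. RNU1-1 had 442 and 676 counts in 52X T4A and 469 and 389 in 52X WT. RNU1-27P, a pseudogene by symbol, had 455 and 727 counts in 52X T4A and 478 and 384 in 52X WT. Within a library the 7 values were as close as counting noise allows. For 52X T4A the mean ± SD over the copies was 435 ± 23.9 counts in replicate 1 and 721 ± 21.4 in replicate 2, and for 52X WT 474 ± 14.1 and 397 ± 11.9, beside square roots of the mean of 20.8, 26.9, 21.8 and 19.9. The chi-square per degree of freedom over the copies was 1.31, 0.638, 0.420 and 0.356. The values were not equal to one another, as they would be if every read had been counted at every copy. How reads with several best positions were assigned is not given in the sources used here. A value of any of the 7 is therefore a share of a common pool, and the level of a single locus was not measured.

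Members that differ from RNU1-1 had lower totals, and the order of these did not follow identity to RNU1-1 throughout. RNVU1-9 (RNVU1-7 in RefSeq) differed by the single substitution T150C, with the RNU1-1 base first and positions counted from 1 at the 5′ end of RNU1-1. It had 373 and 560 counts in 52X T4A and 362 and 347 in 52X WT. Positions 1 to 149 are those of the identical copies, so a read that does not cover position 150 matches both equally, and its counts are not separate from that pool. RNU1-11P and RNVU1-10 also share runs of 50 and 62 nt with RNU1-1. RNU1-11P, with 7 substitutions and an identity of 95.7%, had 328 and 463 counts in 52X T4A against 292 and 287 in 52X WT. One of its substitutions, T67C, lies in the U1A loop. RNVU1-10 (RNVU1-1 in RefSeq), with 6 substitutions and 96.3%, had 285 and 443 counts against 284 and 261. These 3 totals, 1642, 1370 and 1273, were below those of the 7 identical copies and above those of the other 40 members. RNU1-89P, by contrast, had an identity of 97.0%, above RNU1-11P and RNVU1-10, and 10, 19, 9 and 4 counts. RNU1-67P, at 95.1%, had 47 and 64 counts in 52X T4A and 11 and 45 in 52X WT. Its substitutions A3G and C8A lie in the stretch that pairs with the 5′ splice site.

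**Figure D1:**
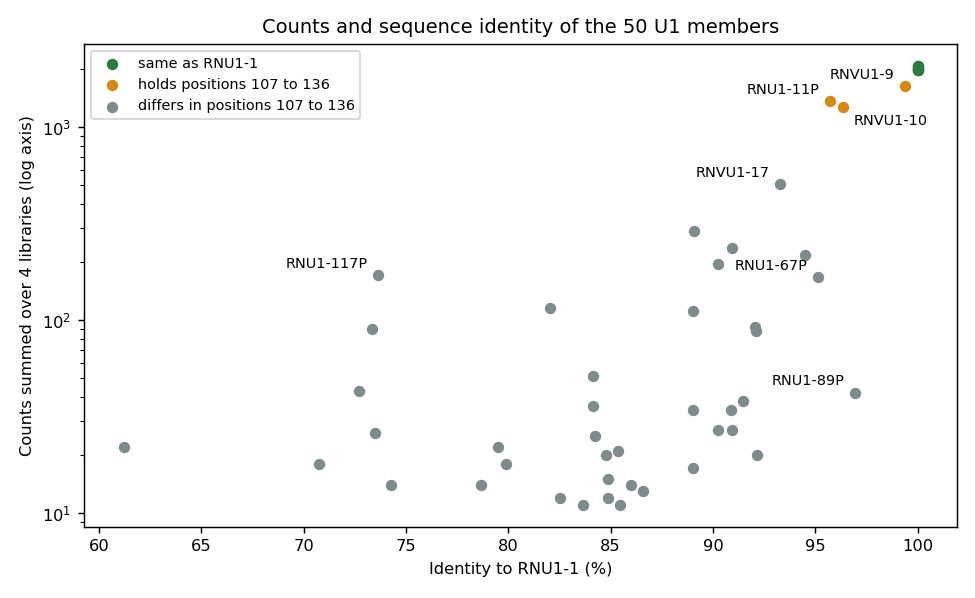
Counts summed over 4 libraries (log axis) against identity to RNU1-1 in percent, 1 point for each of the 50 U1 members, coloured by whether the member equals RNU1-1, holds positions 107 to 136 of it or differs there. The 10 members that hold those positions sit between 1273 and 2085 counts, and the other 40 between 11 and 507, including RNU1-89P at 97.0%.

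The 10 members with the most counts shared a stretch that none of the other features found by symbol held. Each 24-nt window of RNU1-1 that starts at positions 107 to 113, and so the run from 107 to 136 with the Sm site in it, was held without a difference by 10 of the 127 U1 features with a symbol, and these 10 had 1273 to 2085 counts. The highest total among the others with a symbol was 507, that of RNVU1-17, whose substitution A123G falls in the run, as do T124C of RNU1-67P and G117A of RNU1-89P. Windows of 28 nt (14 of 137) and 32 nt (17 of 133) separated the same totals, and none of the 145 windows of 20 nt did. Other parts of RNU1-1 separated fewer features. The 24-nt window from 70 to 93 was held by 8 features with 1642 or more counts, against 1370 or fewer in the others. Windows that separated any number of features were 8 of 141 at 24 nt, 25 of 137 at 28 nt and 44 of 133 at 32 nt. U1 genes named by RefSeq position alone, whose sequences were not read, fill the gap between 507 and 1273 counts: RNVU1-31 had 876, RNVU1-2A 866 and RNVU1-19 819. The window was found with the counts in view and is given as a description only. Whether reads came mainly from this stretch was not tested, since the tables hold no read positions.

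The functional elements were not confined to the functional loci. The letters ACTTACCTG, which pair with the 5′ splice site, stood in 23 of 50 members: 4 functional loci, 6 variants and 13 pseudogenes. The U1-70K loop, GATCACGAAG, stood in 20 members (4, 7 and 9), the U1A loop, ATTGCACTCC, in 19 (4, 5 and 10), and the Sm site, AATTTGTGG, in 35 (4, 8 and 23). The search read the RNA strand alone, and the elements do not overlap. Among 444 other small RNAs within the length range of the members (128 to 165 nt), the first 2 elements stood in 0 and the last 2 in 0.225% each. All 4 elements stood together in 9 of 127 U1 features, the identical copies with RNVU1-9 and RNVU1-10, with a median total of 1995 counts. The 10 features with 3 elements ranged from 3 to 1370 counts, and the 38 with none from 0 to 195. A missing match says only that these letters are not in the feature.

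The shares of U1 counts on functional loci, by symbol, were 37.8% (95% exact binomial interval 36.4 to 39.2) and 37.3% (36.2 to 38.4) in 52X T4A, and 40.3% (38.9 to 41.7) and 36.8% (35.3 to 38.2) in 52X WT. The intervals cover counting error only. The group values were 37.5 ± 0.340% in 52X T4A and 38.5 ± 2.47% in 52X WT (SD, n = 2), a difference of -0.999 percentage points, which is less than the spread between the 52X WT libraries. The difference turned to 0.744 points without 52X WT replicate 1 and was -2.74 points without 52X WT replicate 2. With all 7 identical copies taken as functional, the shares were 65.8 ± 0.130% and 66.7 ± 5.05%, and the difference was -0.920 points. The 3 members that share positions 107 to 136 held 21.4 and 19.1% of U1 counts in 52X T4A and 19.9 and 20.4% in 52X WT. The 40 others held 12.7 and 15.2% against 9.80 and 16.5%.

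**Figure D2:**
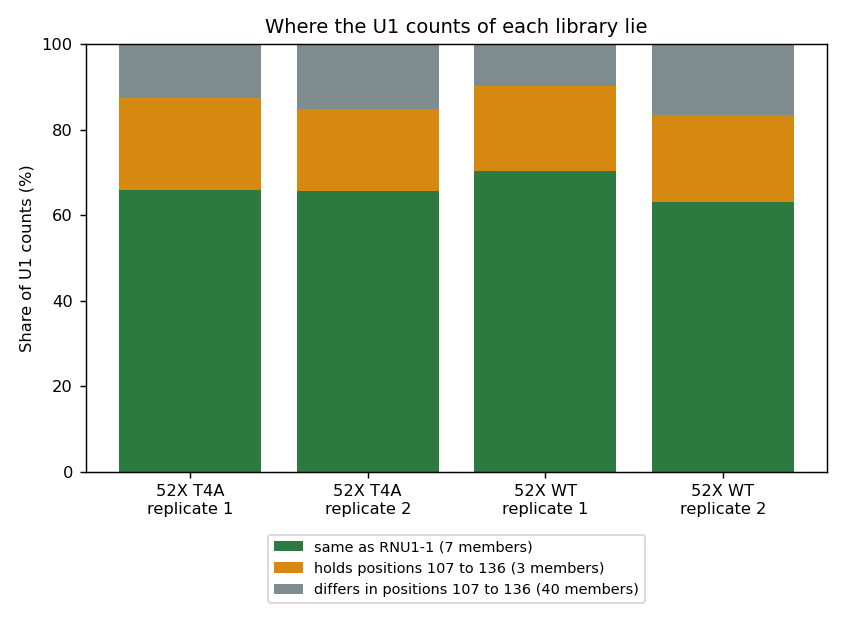
Share of U1 counts in each library (percent, stacked bars) held by the 7 members with the sequence of RNU1-1, the 3 that hold positions 107 to 136, and the 40 others. The first group holds between 63.2 and 70.3%, with both extremes in 52X WT.

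The summed level of the functional loci, in CPM on library sizes scaled by TMM factors, as all later CPM, was 110 and 90.6 in 52X T4A and 130 and 85.9 in 52X WT. The 52X T4A values lay between those of the 52X WT libraries. The difference of mean log2 CPM, 52X T4A minus 52X WT, was -0.08 for functional loci beside a replicate SD of 0.33, and it was 0.09 on library size alone and 0.08 with upper quartile scaling. Leaving out 1 library also turned its sign, with 0.22 without 52X WT replicate 1 and 0.06 without 52X T4A replicate 2, against -0.38 without 52X WT replicate 2 and -0.22 without 52X T4A replicate 1. Variants summed to 81.6 and 69.3 CPM in 52X T4A and 94.8 and 68.4 in 52X WT, a log2 difference of -0.10 (SD 0.26). Pseudogenes summed to 99.95 and 83.2 CPM against 98.2 and 79.4, a log2 difference of 0.05 (SD 0.20). All 50 members gave -0.04 (SD 0.27). Each of these differences by symbol was smaller than the spread between replicates. Since RNU1-27P and RNU1-28P carry the functional sequence, the contrast by symbol compares parts of one pool. Split by sequence, the log2 differences were -0.06 for the 7 identical copies, -0.04 for the 3 near copies and 0.09 for the 40 others, with replicate SDs of 0.34, 0.30 and 0.14. With only the identical copies moved to the functional class, the 9 remaining variants gave -0.10 (SD 0.23). The 34 remaining pseudogenes gave 0.16 (SD 0.14), a difference larger than its replicate SD. Their levels were 43.7 and 37.6 CPM in 52X T4A and 34.2 and 38.4 in 52X WT, so the groups overlapped.

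**Figure D3:**
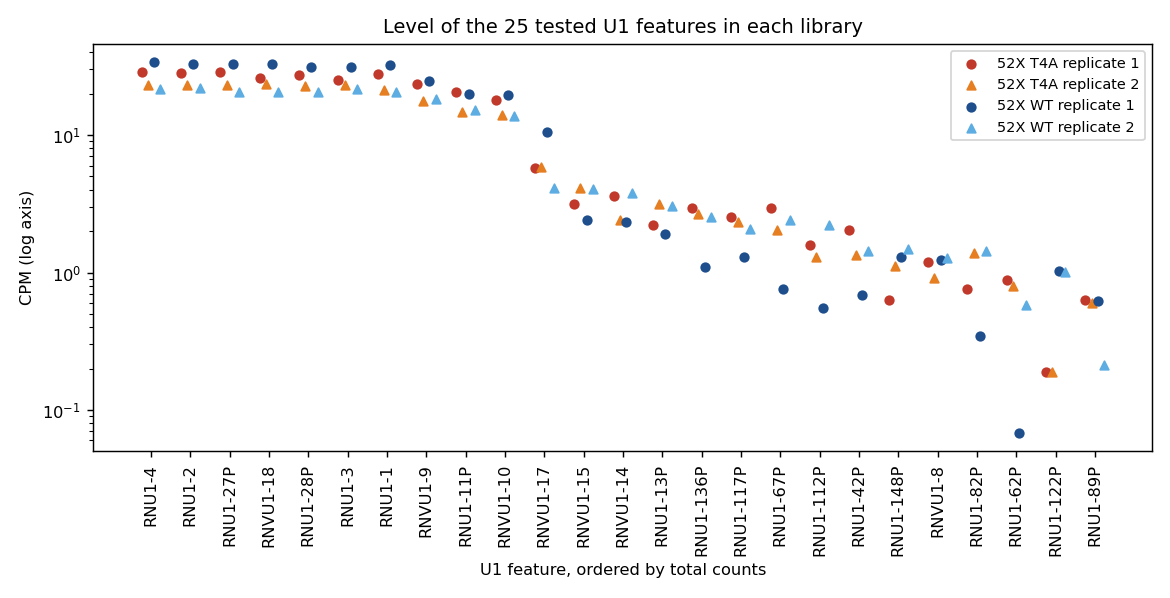
Level in CPM (log axis) of the 25 tested U1 features in each of the 4 libraries, ordered by total counts; circles are replicate 1 and triangles replicate 2, reds 52X T4A and blues 52X WT. 52X WT replicate 1 is the highest of the 4 for the 7 members at the left and the lowest for many members at the right. The 7 members at the left are readings of a common pool.

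Within U1, replicate 1 of 52X WT was high for the identical copies and low for many other members. It was the highest of the 4 libraries for 7 of 7 identical copies, which are readings of a common pool. Their sum was 227 CPM here, against 192 and 160 in 52X T4A and 148 in 52X WT replicate 2. This library was also the highest for 2 of 3 near copies, which share runs of sequence with that pool. It was the lowest for 10 of the 15 other members tested, a split made with the counts in view. Over all 1480 features tested it was the highest for 37.4% and the lowest for 29.7%. The identical and near copies are not independent features, so their numbers cannot be set against these shares. Of the 15 others, RNU1-13P, RNU1-67P and RNVU1-17 share runs of 50, 49 and 41 nt with RNU1-1. Whether their counts include reads of the pool was not tested. For the 15 others a difference from these shares was not tested. RNU1-136P, for example, had 47, 84 and 48 counts in the other libraries (2.97, 2.66 and 2.55 CPM) and 16 here (1.10 CPM). RNU1-67P had 0.754 CPM in this library and 2.03 to 2.97 CPM in the others. RNVU1-17, a variant with substitutions in the U1-70K loop (C33T and G37A), went the other way, with 5.75 and 5.89 CPM in 52X T4A, 10.5 CPM in 52X WT replicate 1 and 4.09 CPM in replicate 2.

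For single members, the comparison of 52X T4A with 52X WT asked whether the polymerase with the altered CTD left the level of U1 RNAs changed. Of the 50 members, 25 passed the filter on low counts: 4 functional loci, 7 variants and 14 pseudogenes. In edgeR's quasi-likelihood test, 0 of 25 were called at a Benjamini-Hochberg adjusted p below 0.05 with a fold above 1.5, beside 0.135% of all features tested (2 of 1480), 0.0676% in each direction. In edgeR 1 of them had an unadjusted p below 0.05, beside 10.3% of all features. DESeq2 gave an adjusted p for 12 of the 25 and called 0 of those 12; the other 13, RNU1-122P among them, received no adjusted p and could not be called. The log2 fold changes lay above 0 for 10 and below 0 for 15, with a median of -0.05, which is also that of all features tested. The 7 identical copies, readings of a common pool, were all below 0, and the 3 near copies gave 1 above and 2 below. The 15 other tested members gave 9 above and 6 below, with a median of 0.17. The medians were -0.10 for functional loci, -0.07 for variants and 0.20 for pseudogenes. The groups did not overlap in 3 members higher in 52X T4A and 3 lower, beside 18.9% and 21.2% of all features (40.1% in either direction). All of these members were among the 15 tested that are neither identical nor near copies. The identical and near copies are not independent features, so numbers out of 25 cannot be set against the shares of all features. The labels' design text calls the samples biological replicates, and the p-values measure the spread between those libraries.

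The functional loci were all close to 0 with wide intervals. RNU1-1 stood at 24.7 ± 4.61 CPM in 52X T4A and 26.4 ± 8.11 in 52X WT (SD, n = 2), a log2 fold change of -0.10 (SE 0.34, 95% interval -0.87 to 0.67). RNU1-2 had 448, 730, 482 and 412 counts in 52X T4A replicates 1 and 2 and 52X WT replicates 1 and 2, and a log2 fold change of -0.09 (SE 0.33). In the same order RNU1-3 had 395, 728, 455 and 409 counts, with a log2 fold change of -0.14 (SE 0.32). RNU1-4 had 458, 728, 492 and 407 counts, with a log2 fold change of -0.09 (SE 0.34). Across the 7 identical copies, including RNVU1-18 (409, 743, 483 and 389 counts) and RNU1-28P (436, 715, 456 and 388), the log2 fold changes ran from -0.14 to -0.04, with edgeR quasi-likelihood adjusted p of 0.917 to 0.981. They are repeated readings of a common pool, not 7 independent results.

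The variants also showed no call. RNVU1-9 and RNVU1-10 had log2 fold changes of -0.07 and -0.06 (SE 0.33 and 0.34), and RNVU1-17 of -0.32 (SE 0.45). RNVU1-15, at 89.1% identity, had 50 and 129 counts in 52X T4A and 35 and 76 in 52X WT, with a log2 fold change of 0.17. RNVU1-14 had 57, 76, 34 and 71 counts in the same order and a log2 fold change of -0.05. RNVU1-8 was lower in both 52X T4A libraries, at 1.20 and 0.918 CPM against 1.23 and 1.27 CPM, but its log2 fold change was -0.27 with an SE of 0.43.

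The pseudogenes, classed by GENCODE symbol, spread more widely. RefSeq gives variant names (RNVU1) to RNU1-122P, RNU1-13P, RNU1-106P, RNU1-85P and RNU1-120P, so class membership depends on the source of names. RNU1-122P (RNVU1-21 in RefSeq; chr1:148334612-148334767, minus strand) had 3 and 6 counts in 52X T4A and 15 and 19 in 52X WT. Its levels were 0.190 and 0.190 CPM against 1.03 and 1.01 CPM, so the groups lay apart. The log2 fold change was -2.39 (SE 0.54, 95% interval -3.61 to -1.16), with an unadjusted p of 0.00157 and an adjusted p of 0.200 in edgeR's quasi-likelihood test. Over the edgeR alternatives its adjusted p ran from 0.0338 to 0.877. It was 0.0338 with no filter on low counts, 0.0391 with the replicate block and 0.0496 without 52X WT replicate 2, and DESeq2 gave no adjusted p. The feature lies across an exon of a long non-coding RNA on the other strand, whether reads were counted by strand is not given in the sources used here, and its GENCODE sequence holds none of the 4 elements.

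RNU1-136P, RNU1-117P and RNU1-62P were higher in both 52X T4A libraries than in either 52X WT library. RNU1-136P had 2.97 and 2.66 CPM against 1.10 and 2.55, a log2 fold change of 0.60 (SE 0.44). RNU1-117P, with an identity of 73.7%, had 40 and 73 counts against 19 and 39, a log2 fold change of 0.50 (SE 0.40). RNU1-62P had 14 and 25 counts against 1 and 11, a log2 fold change of 1.24 (SE 0.70). In each, 52X WT replicate 1 was the lowest library. Without 52X WT replicate 2, which leaves that library alone in its arm, edgeR's adjusted p was 0.0404 for RNU1-62P (log2 fold change 3.49) and 0.0344 for RNU1-67P (1.70, against 0.61 with all libraries), and 218 features were called in the whole table. Without 52X WT replicate 1, the low library, the log2 fold changes were 0.42 for RNU1-62P, 0.04 for RNU1-136P, 0.13 for RNU1-117P and -0.06 for RNU1-67P, whose sign turned. The adjusted p over the edgeR fits ran from 0.0404 to 0.940 for RNU1-62P and from 0.0344 to 0.991 for RNU1-67P.

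RNU1-148P was lower in both 52X T4A libraries, with 10 and 35 counts against 19 and 28 (0.632 and 1.11 CPM against 1.30 and 1.49) and a log2 fold change of -0.63 (SE 0.46). The other tested pseudogenes overlapped between groups. RNU1-13P (RNVU1-2 in RefSeq) had 35, 99, 28 and 57 counts in 52X T4A replicates 1 and 2 and 52X WT replicates 1 and 2, and RNU1-42P had 32, 42, 10 and 27. RNU1-112P had 25, 41, 8 and 42 counts and RNU1-82P had 12, 44, 5 and 27. The log2 fold changes were 0.12 for RNU1-13P, 0.60 for RNU1-42P, -0.0049 for RNU1-112P, 0.27 for RNU1-82P, 0.62 for RNU1-89P and 0.0036 for RNU1-11P.

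**Figure D4:**
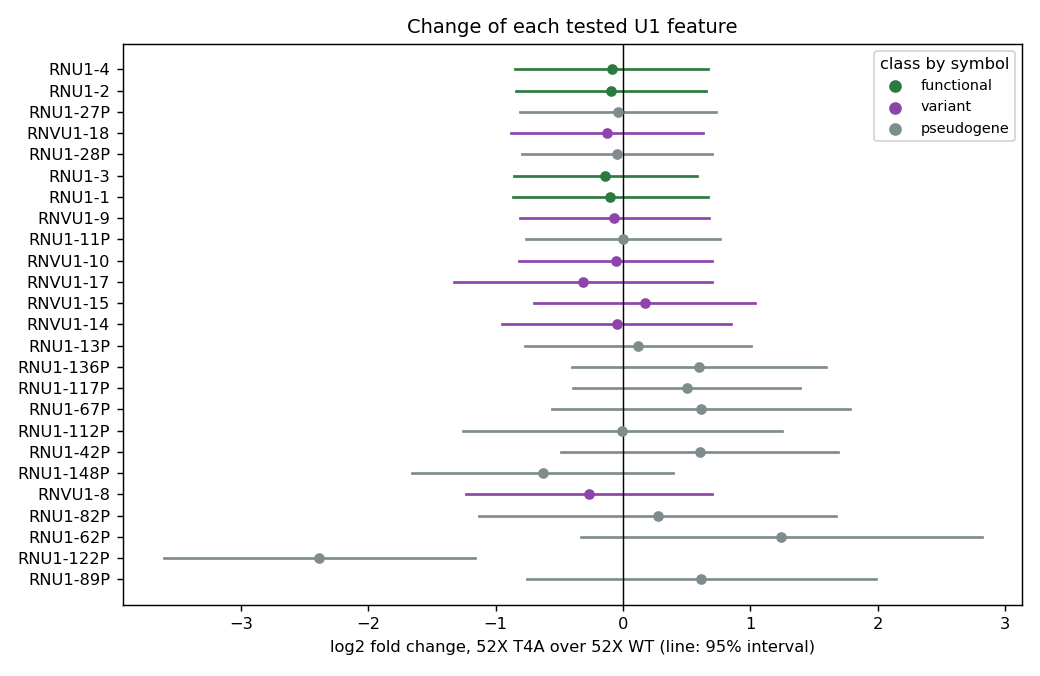
log2 fold change of each tested U1 feature, 52X T4A over 52X WT, with the 95% interval from the edgeR fit as a line, coloured by class by symbol. RNU1-122P, at -2.39, is the member whose interval does not reach 0; those of the 4 functional loci lie between -0.87 and 0.67.

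The 25 members below the filter had totals of 11 to 38 counts and were not tested. Their groups did not overlap in 5 higher and 5 lower members, and overlapped in 15, beside 18.4% higher and 17.8% lower among the 625 features below the filter with totals in the same range. RNU1-106P (7 and 24 counts in 52X T4A against 2 and 5 in 52X WT) was higher and the variant RNVU1-12 (4 and 8 against 8 and 16) lower by CPM. RNU1-18P (10 and 10 against 8 and 6) and the variant RNVU1-6 (3 and 11 against 4 and 16) overlapped. No fold is given at these counts.

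None of the other snRNA families had a call in the same fit. U2, the branch site snRNA, had 30 features tested, 16 above 0 and 14 below (median log2 fold change 0.03). In edgeR 14 of the 30 had an unadjusted p below 0.05, beside 10.3% of all features. The U2 groups did not overlap in 12 features higher in 52X T4A and 8 lower, beside 18.9% and 21.2% of all features. Whether U2 features share reads was not tested. U4, which pairs with U6, had 8 tested with 7 below 0 and a median of -0.94, and U5, which contacts exon ends, had 9 tested with a median of -0.43. U6, made by RNA polymerase III, had 31 tested with a median of 0.15. U7, of histone mRNA processing, had 3 tested with a median of -0.42. For the minor spliceosome, U4atac had 6 tested (median 0.19) and U12 had 1 (0.09), and no feature with a U11 or U6atac symbol passed the filter. Families were found by GENCODE symbol alone, so features without a symbol are left out. The RNA polymerase III transcript 7SK, with its pseudogenes, had 30 tested with a median of 0.06. U1, at -0.05, lay between these medians, and differences between families were not tested. The U1 median counts each of the 7 identical copies, which are readings of a common pool.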

How the data were processed

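Small RNA libraries (single-end, 50 bp) were made from total RNA of 4 samples, 2 of each group. The authors deposited raw counts per annotated feature, 1 table per library. Their processing notes name cutadapt 4.6, Bowtie2 2.3.5.1, featureCounts 1.5.0 and hg38. The annotation, the strand setting, other parameters and the treatment of multi-mapping reads are not given in the sources used here. Of 7062 features, 5579 received a GENCODE v44lift37 symbol by Ensembl identifier. Coordinates are those of the tables, while sequences and overlaps with genes are of the GRCh37 annotation.

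Counts were fitted with edgeR 4.0.16 in R 4.3.3 (filterByExpr with a minimum count of 10, TMM, glmQLFit and glmQLFTest), with Benjamini-Hochberg adjustment over all 1480 features tested; a call needed an adjusted p below 0.05 and a fold above 1.5. DESeq2 1.42.0, other scaling factors, no filter, the replicate number as a block, removal of the 5 most abundant features and omission of each library were alternatives, and the fit was tested on simulated data. Class sums, shares and windows had no test. Identity is the share of matching columns in a pairwise alignment with RNU1-1. Named with values are all functional loci, every variant and pseudogene that passed the filter, and the members below it with the most counts (a tie adds 1 to the 3 planned). Members and lists were chosen with earlier results of these data known.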

Additional observations from a re-analysis of the deposited data

How the results depend on the processing

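The number of features called in the whole table, 2 of 1480, was 9 on library size alone, 29 with no filter on low counts, 30 with DESeq2 (which gave no adjusted p for 13 of the 25 tested members), 18 with the replicate block and 4 to 218 when 1 library was left out (218 without 52X WT replicate 2, 35 without 52X WT replicate 1, 6 and 4 without 52X T4A replicates 1 and 2). The number of U1 members called, 0, was 1 with no filter and 1 with the replicate block (RNU1-122P both times), and 0 to 3 when 1 library was left out, with 3 (RNU1-67P, RNU1-62P and RNU1-122P) without 52X WT replicate 2. A lone library is assumed to vary like the other group. The log2 fold change of RNVU1-17 turned to 0.42 without 52X WT replicate 1 (-0.85 to 0.42 over omissions), and that of RNU1-112P to 1.37 without 52X WT replicate 2 (-0.74 to 1.37). The cause was not tested.

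Of 262 comparisons of a tested member with an alternative that gave an adjusted p, 5 gained a call. Another 2 turned direction by at least the replicate spread, as given above, with no call in either fit. The other 255 kept their call status, and any turn of direction among them was smaller than that spread. Counting every sign change, also of values near 0, there were 30 in 175 fits with all libraries and 31 in 100 with 1 left out. The median of all features was -0.05, against 0.14 on library size alone and 0.13 with upper quartile factors. Class sums and the functional share moved by less than the replicate spread, though some turned sign. For the fits with 1 library left out, that outcome was fixed in advance. Dropping 1 of 2 libraries cannot move a group mean by more than this spread, so these fits do not show stability. Adding U1 genes named by RefSeq position alone was chosen after seeing the data. The replicate numbers share no stated origin; same-numbered libraries had a correlation of deviations of 0.0946, and the replicate block changed no U1 call other than that of RNU1-122P. With 2 libraries a group and SEs of 0.32 or more for the most abundant members, small changes could not be seen.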

Other observations

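Several U1 genes fell outside the symbol rule because GENCODE gave their identifiers no symbol, while RefSeq has a U1 gene at the identical position. RNVU1-28 (chr1:144560666-144560829, minus strand) had 422 and 691 counts in 52X T4A and 474 and 418 in 52X WT, a total of 2005 that lies within the range of the 7 identical copies. RNVU1-31 had a total of 876 counts, RNVU1-2A of 866, RNVU1-19 of 819, RNVU1-27 of 436 and RNVU1-4 of 28. An unnamed feature of 164 nt on the scaffold KI270713.1 had 422 and 702 counts in 52X T4A and 512 and 380 in 52X WT, a total of 2016. Its sequence was not read here, and whether it is a U1 copy was not tested.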
